A study of Homo sapiens with 267 samples.

Results

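The transcripts of 9 genes of heme synthesis were followed through single-cell RNA-seq libraries of K562, a human immortalised myelogenous leukemia line that makes embryonic and fetal hemoglobin. The genes were ALAS1, ALAS2, SLC25A38, ALAD, UROS, UROD, CPOX, PPOX and FECH, chosen by symbol, and each matched 1 row of the 63677 genes in the count table. Cells were captured on the Fluidigm C1, a microfluidic chip with a capture site per cell, and cDNA was made with the SMARTer kit and turned into libraries with Nextera XT. The study tested whether DSP, a reversible cross-linker, preserves cells for such sequencing, but the labels did not tell fresh, fixed, bulk and empty-site libraries apart, so those were pooled here.

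Libraries came from 3 runs. In the Hoechst run, 96 libraries came from untreated cells of passages 90 to 92 stained with Hoechst and propidium iodide. In the other runs, cells of passages 20 to 22 carried CellTracker dyes. The benzene run held 38 Green libraries of untreated cells and 37 Orange libraries of cells given 10 mM benzene for 3 hours, and 71 of these 75 had a column of counts. The imatinib run held 51 Green libraries of untreated cells and 45 Orange libraries of cells given imatinib, an inhibitor of the BCR-ABL kinase, at 1 µM for 1 hour. All groups were K562. Passage, stain, cell lot, sequencer and read length differed together between the Hoechst run and the CellTracker runs. Within the CellTracker runs every Orange library came from treated cells and every Green library from untreated cells. Dye and drug can therefore not be told apart, and "with benzene" or "with imatinib" below means Orange against Green. Each run and stain was 1 culture, so libraries were not replicates of a condition, no test was possible, and differences between groups have no replicate check.

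Libraries in which the 500 most abundant genes took more than 70% of the reads were left out, which kept 242 of 263. These held 50358 to 2043351 reads on genes, and the median number of genes with at least 3 reads was 7410.5 in the Hoechst run, 5905 in the benzene run and 8022 in the imatinib run. Of 10 erythroid markers looked up, among them GATA1, TFRC, RHAG and EPOR, 9 in benzene Green and 10 in the other groups were detected in at least 20% of libraries. Of 8 markers of other cell types 2 passed that limit, CD3D and EPCAM, while MS4A1 and CD3E had at most 4 reads in a run.

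Of the 242 libraries, 13 stood apart from the rest, 6 in the Hoechst run, 3 in the benzene run (1 Green, 2 Orange) and 4 in the imatinib run (2 Green, 2 Orange). Each had a Pearson correlation of 0.924 to 0.962 in log2(CPM + 1) with another library of its run, where the other libraries reached at most 0.771. They had 9138 to 12134 genes detected, against medians of 7388, 5859.5 and 7995 in the other libraries of the Hoechst, benzene and imatinib runs, and ERCC spike-in shares of 0.46% to 4.30% against medians of 5.63%, 4.19% and 8.43%. The labels do not say what these libraries hold. The paper lists 2 bulk samples for fresh cells and for each storage time in each experiment, sequenced with the single cells. Whether the libraries that stood apart are those bulk samples was not tested. They were kept, and values without them are given where they bear on a result; this alternative and its limit of 0.85 were chosen after the data were seen.

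Heme is built from glycine and succinyl-CoA in a pathway that starts and ends in the mitochondrion and passes through the cytosol in between. ALAS1 and ALAS2 catalyse its first and rate-limiting step, ALAS1 in all tissues and ALAS2, encoded on the X chromosome, in the erythroid lineage. SLC25A38 is the mitochondrial carrier linked to glycine import for that step. ALAD, UROS and UROD act on the way to the porphyrin ring in the cytosol, and CPOX, PPOX and FECH finish it in the mitochondrion, where FECH inserts iron. Erythroid cells run the pathway at a high rate to supply hemoglobin, and several of its genes have erythroid promoters driven by GATA1 and KLF1.

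The sequences just upstream of 4 of the genes are shown because these genes behaved differently across the libraries. UROD was present in every library. ALAS1 and ALAS2 are alternative enzymes of the same step, and ALAS2 and CPOX varied most in detection between runs. Each sequence is the 250 bases before the annotated start in RefSeq on GRCh38.p14, 5′ to 3′ on the gene's strand. Capitals mark GATA hexamers (spelled AGATAA in the first form, AGATAG in the next, TGATAA in another and TGATAG in the last) and CACC boxes (CCNCNCCC) on either strand, where overlapping matches run together.
ALAS1, chr3:52197833-52198082, plus strand: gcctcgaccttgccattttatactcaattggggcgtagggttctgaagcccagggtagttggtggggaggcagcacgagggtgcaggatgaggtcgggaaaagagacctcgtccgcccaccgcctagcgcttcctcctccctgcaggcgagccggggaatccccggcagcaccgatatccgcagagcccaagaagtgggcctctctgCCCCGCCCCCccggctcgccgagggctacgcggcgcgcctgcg
ALAS2, chrX:55030978-55031227, minus strand: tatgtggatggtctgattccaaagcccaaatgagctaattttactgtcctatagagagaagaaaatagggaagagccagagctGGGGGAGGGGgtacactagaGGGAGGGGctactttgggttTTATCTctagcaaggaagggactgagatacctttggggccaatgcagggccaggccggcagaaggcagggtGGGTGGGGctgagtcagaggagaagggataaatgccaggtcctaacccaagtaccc
UROD, chr1:45012004-45012253, plus strand: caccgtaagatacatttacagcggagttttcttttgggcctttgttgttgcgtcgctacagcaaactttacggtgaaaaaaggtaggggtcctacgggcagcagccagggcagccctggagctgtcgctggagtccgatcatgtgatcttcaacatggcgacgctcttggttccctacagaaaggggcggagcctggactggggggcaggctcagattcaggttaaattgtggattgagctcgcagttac
CPOX, chr3:98593612-98593861, minus strand: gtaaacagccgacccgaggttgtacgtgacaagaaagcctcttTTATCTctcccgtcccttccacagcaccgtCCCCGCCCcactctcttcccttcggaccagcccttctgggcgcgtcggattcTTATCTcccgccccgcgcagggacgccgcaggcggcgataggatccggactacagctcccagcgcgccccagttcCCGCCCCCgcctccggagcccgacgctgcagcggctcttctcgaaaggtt

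The ALAS2 sequence held 1 GATA hexamer, on the opposite strand and starting 127 bases before the start, and 4 CACC box matches. The CPOX sequence held 2 GATA hexamers and 2 CACC boxes, the ALAS1 sequence 2 CACC boxes and no GATA hexamer, and the UROD sequence neither. Of the members not shown, ALAD and PPOX each held 1 GATA hexamer in 1 of 2 entries. ALAD, PPOX and FECH held CACC boxes, and SLC25A38 held neither motif. Among 35116 RefSeq promoters of this length, 22.3% held a GATA hexamer and 53.4% a CACC box, so such matches are common. The motif of the factor NRF1, which 7.16% of promoters held, was in none of the windows of the 8 members with an entry. A match is a description of letters and not a site. UROS was without an entry.

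UROD, uroporphyrinogen decarboxylase (ENSG00000126088; GRCh37 chromosome 1, 45476622 to 45481247), was the most abundant of the 9 transcripts and the steadiest. It was detected, meaning at least 3 reads, in all 242 libraries. Its CPM, the count scaled to 1000000 reads on genes, ran from 73.3 through a median of 662 to 3134 in the Hoechst run. In the benzene run they ran from 207 through 1354 to 4516 in Green and from 456 through 1323 to 3336 in Orange libraries. In the imatinib run they ran from 31.8 through 1101 to 2731 in Green and from 104 through 1118 to 2287 in Orange libraries. The ranges overlapped in all 5 groups, with the Hoechst run lowest by median.

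Summed over libraries, UROD reached 726 CPM in the Hoechst run (exact 95% Poisson interval 721 to 731), 1699 and 1560.2 CPM in benzene Green and Orange, and 1223 and 1153 CPM in imatinib Green and Orange. Reads carry no molecular identifiers, so these intervals cover counting error only. UROD took 66.3% of the reads on the 9 genes in the Hoechst run, 76.4% in the benzene run and 67.1% in the imatinib run. Its SD over libraries was 1.18, 0.86 and 1.02 in log2(CPM + 1) in those runs. Of its exon bases, 9.31% are shared with HECTD3 on the opposite strand, where reads may have been set aside as ambiguous or belong to either gene.

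Levels of different genes were compared as summed CPM per kilobase of annotated exon. UROD led in each run, at 180.2 in the Hoechst run, 404 in the benzene run and 295 in the imatinib run. The gene next below it differed, and was ALAS1 (25.1) in the Hoechst run, SLC25A38 (40.5) in the benzene run and ALAS2 (65.6) in the imatinib run. Below these, neighbours in the order lay close together against spreads over libraries of 1.81 to 3.28 log2 units, so their order is not firm. UROS was lowest in the Hoechst and imatinib runs at 1.79 and 2.34, but its exon union of 9505 bases is far longer than its canonical transcript of 1336 bases, and per canonical transcript it stood above ALAD in each run. Per canonical transcript PPOX stood at 52.9, 26.4 and 54.8 CPM per kilobase, next to UROD in the Hoechst run.

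**Figure D1:**
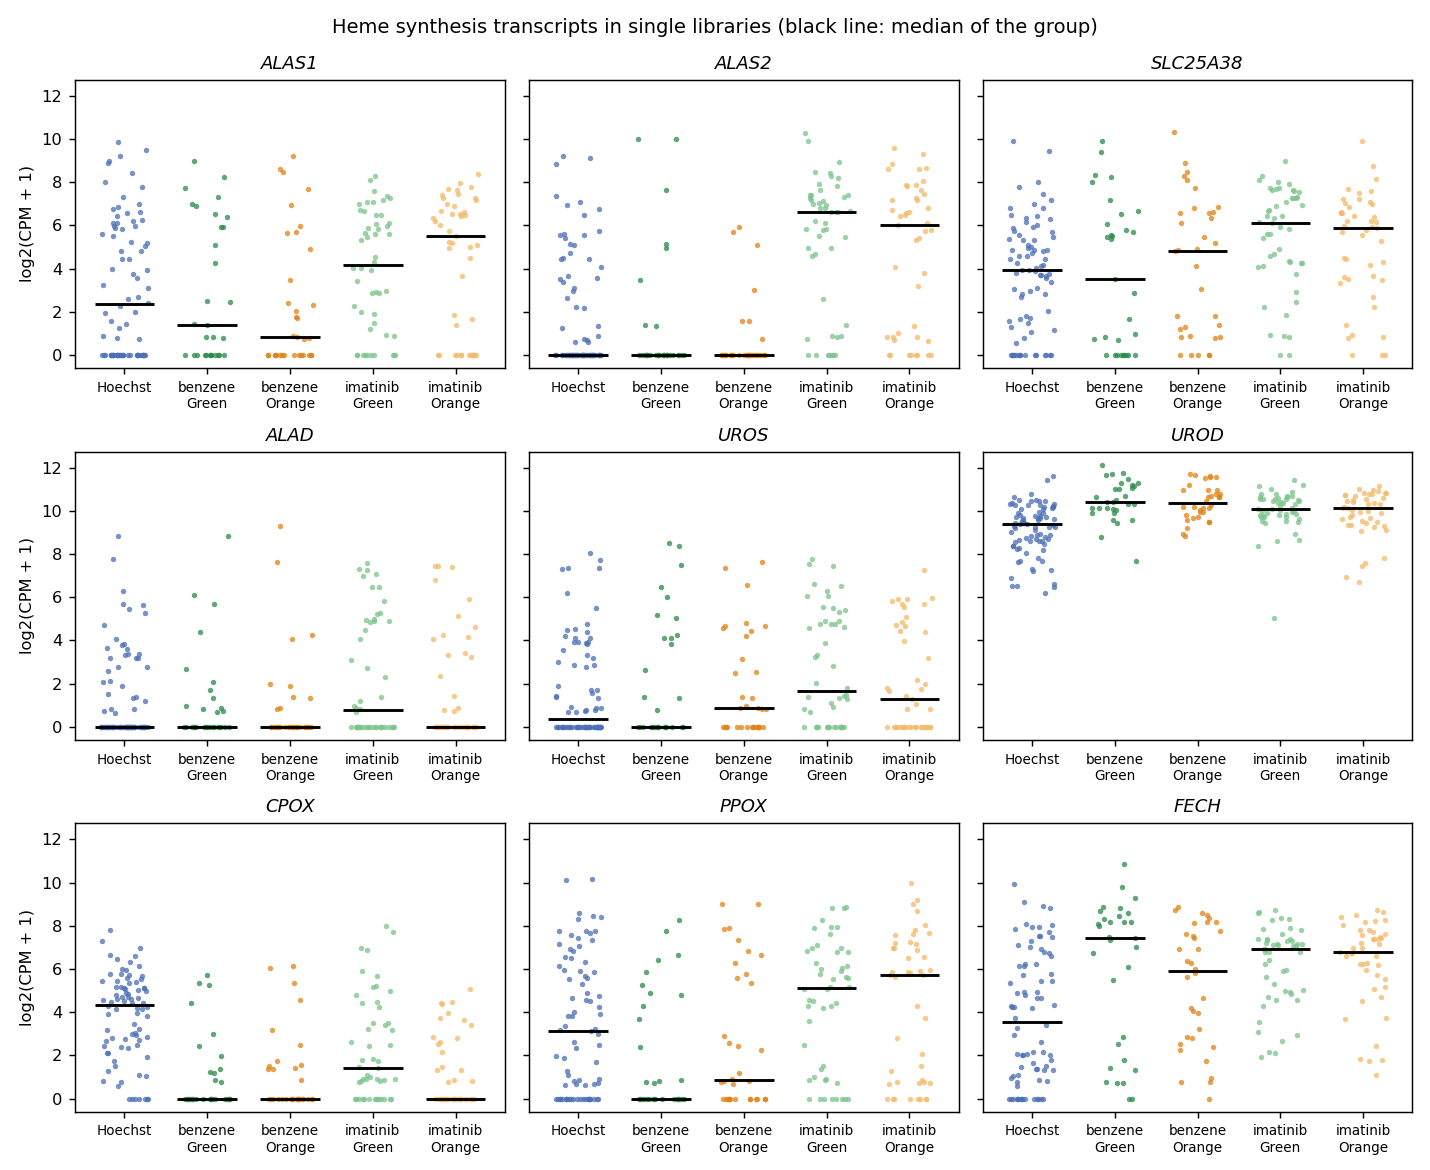
Each point is 1 library, with log2(CPM + 1) of the gene on the vertical axis and the 5 groups along the horizontal axis, and the black line is the group's median. UROD lies in a band with 1 library under 6 log2 units, while most other genes have many libraries at 0 beside a few high ones.

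The genes of the first step behaved in another way, with many libraries at 0 and a few very high. ALAS1 (ENSG00000023330), at 52232102 to 52248343 of chromosome 3 in GRCh37, ran from 0 through a median of 4.09 to a highest of 919.9 CPM in the Hoechst run. Its medians were 1.59 CPM in benzene Green and 0.76 in benzene Orange, with highest libraries of 510.1 and 586 CPM. In the imatinib run the medians were 16.96 CPM in Green and 44.2 in Orange, with highest libraries of 312 and 334 CPM. The lowest library was at 0 in each group, so all groups overlapped. ALAS1 was detected in 53.7% of Hoechst libraries (exact 95% binomial interval 42.3 to 64.7), 44.6% of benzene libraries (32.3 to 57.5) and 71.6% of imatinib libraries (61.4 to 80.4), and its summed level stayed between 53.2 and 74.1 CPM in the 5 groups.

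ALAS2 (ENSG00000158578; GRCh37 chromosome X, 55035488 to 55057410) had the largest share of its variance between runs among the 9 members. In the Hoechst run its median was 0 and its highest library 598 CPM. In the benzene run the median was 0 in Green and in Orange, with highest libraries of 1037 and 60.4 CPM. In the imatinib run the medians were 97.5 CPM in Green and 64.03 in Orange, with highest libraries of 1226 and 777 CPM and lowest libraries at 0. It was detected in 35.4% of Hoechst libraries (25.1 to 46.7), 18.5% of benzene libraries (9.9 to 30.0) and 71.6% of imatinib libraries (61.4 to 80.4). These intervals cover the draw of libraries within a run and not differences between cultures. With each library thinned at random to 500000 reads the shares were 32.5%, 15.4% and 71.6%. Genes nearest to ALAS2 in mean CPM were detected in a median of 63.4%, 55.4% and 96.8% of libraries in these runs. The run accounted for 27.8% of the variance of ALAS2 over the 242 libraries in log2(CPM + 1), against 4.35% for ALAS1, and for 29.8% without the 13 libraries that stood apart.

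ALAS2 reads were concentrated in few libraries outside the imatinib run. The top 3 libraries held 63.8% of ALAS2 reads in the Hoechst run, 91.1% in the benzene run and 19.7% in the imatinib run. ALAS1 and ALAS2 were detected together in 15 of 82 Hoechst libraries, 8 of 65 benzene libraries and 50 of 95 imatinib libraries, where the product of their shares gives 15.6, 5.35 and 48.7. Libraries with neither numbered 24, 32 and 9. Without the 13 libraries that stood apart, both were detected in 9, 5 and 46 libraries, where the shares give 11.5, 3.77 and 45.01. The Spearman correlation of ALAS1 with ALAS2 was -0.06, 0.08 and -0.18 over the libraries of these runs, and -0.16, -0.01 and -0.19 without them.

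SLC25A38 (ENSG00000144659; GRCh37 chromosome 3, 39424861 to 39438842), the mitochondrial carrier, was detected in 73.2% of Hoechst libraries, 61.5% of benzene libraries and 87.4% of imatinib libraries. Its median was 14.4 CPM in the Hoechst run, 10.6 in benzene Green, 27.3 in benzene Orange, 68.9 in imatinib Green and 58.6 in imatinib Orange. The lowest library was at 0 in each group and the highest lay between 508 and 1285 CPM.

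ALAD and UROS, cytosolic enzymes before UROD, were the least detected members of each run once ALAS2 and CPOX, whose place changed with the run, are set aside. ALAD (ENSG00000148218; GRCh37 chromosome 9, 116148592 to 116163570), which joins aminolevulinate into porphobilinogen and is inhibited by lead, was detected in 31.7%, 20% and 35.8% of Hoechst, benzene and imatinib libraries. A single library held 75.1% of its reads in benzene Green and another 69.6% in benzene Orange. UROS (ENSG00000188690; GRCh37 chromosome 10, 127473549 to 127511827), which closes the porphyrin ring, was detected in 32.9%, 36.9% and 48.4% of libraries. Their summed levels were 13.3 to 24.3 CPM for ALAD and 16.3 to 36.1 CPM for UROS in the 5 groups, and medians were at most 2.16 CPM.

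CPOX (ENSG00000080819; GRCh37 chromosome 3, 98298290 to 98312492), coproporphyrinogen oxidase, was the one member detected most often in the Hoechst run, at 82.9% of libraries (73.02 to 90.3) against 24.6% (14.8 to 36.9) in the benzene run and 38.9% (29.1 to 49.5) in the imatinib run. After thinning the shares were 71.2%, 18.5% and 29.5%. Its Hoechst median was 19.5 CPM with a highest library of 220.3 CPM. Its median was 0 in both benzene groups and in imatinib Orange, and 1.71 CPM in imatinib Green. Genes nearest to CPOX in mean CPM were detected in a median of 59.8%, 16.9% and 45.3% of Hoechst, benzene and imatinib libraries. The run accounted for 24.4% of the variance of CPOX. Its squared coefficient of variation was above that of 5.47% of the genes nearest in mean in the Hoechst run, 16.9% in the benzene run and 82.1% in the imatinib run.

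PPOX and FECH are the last enzymes of the pathway. PPOX (ENSG00000143224; GRCh37 chromosome 1, 161135846 to 161147803) was detected in 59.8%, 40% and 67.4% of Hoechst, benzene and imatinib libraries, with medians from 0 in benzene Green to 52.5 CPM in imatinib Orange. Of its exon bases 26.2% are shared with genes on the opposite strand, 1118 bases of them with B4GALT3, so its values are uncertain. FECH (ENSG00000066926; GRCh37 chromosome 18, 55211609 to 55253964), ferrochelatase, was the most often detected member after UROD in the CellTracker runs, at 83.1% of benzene and 97.9% of imatinib libraries, against 68.3% in the Hoechst run. Its median was 10.8 CPM in the Hoechst run, 171 in benzene Green, 59.05 in benzene Orange, 121 in imatinib Green and 109 in imatinib Orange.

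**Figure D2:**
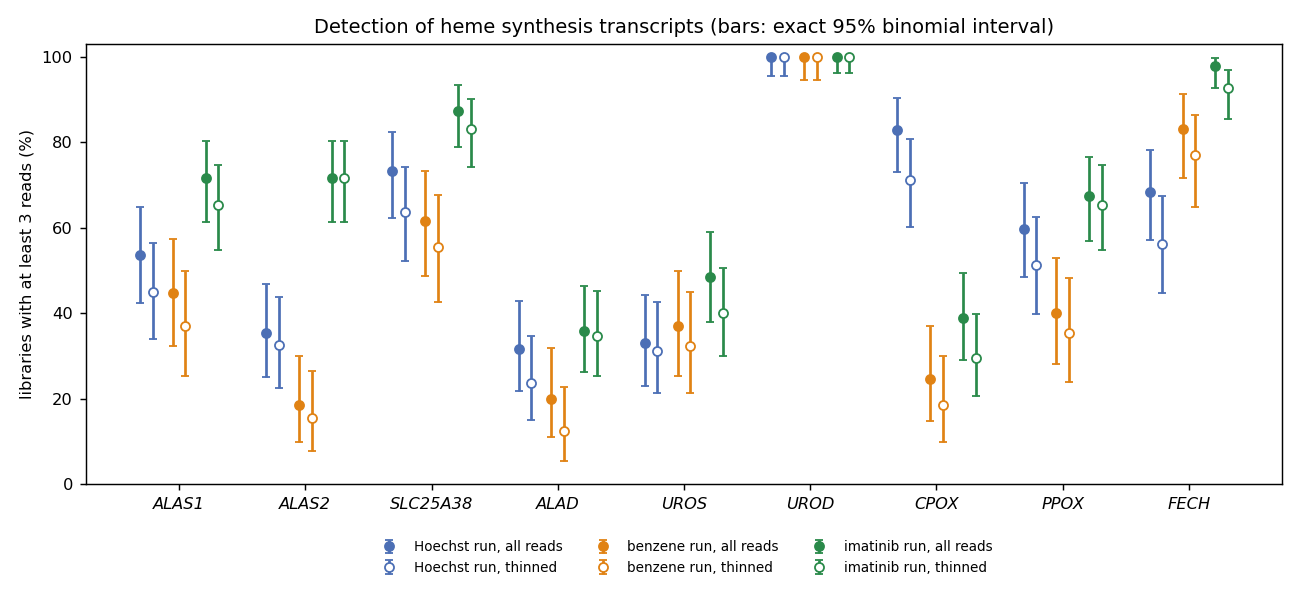
The vertical axis gives the percent of libraries with at least 3 reads on each gene, by run, with exact 95% binomial intervals; filled circles use all reads and open circles libraries thinned to 500000 reads. UROD is at 100% throughout, CPOX is highest in the Hoechst run (82.9%) and ALAS2 in the imatinib run (71.6%).

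Few libraries carried the whole set. The number of members detected per library had a median of 6 in the Hoechst run, 4 in the benzene run and 6 in the imatinib run, with all 9 detected in 5, 3 and 7 libraries. Of these, 5, 3 and 4 were libraries that stood apart, and without them all 9 were detected in 0, 0 and 3 libraries, with medians of 5.5, 4 and 6 members. Spread was set against the genes nearest in mean CPM within each run. ALAS2 varied more than 94.03% of these in the Hoechst run, 96.5% in the benzene run and 98.5% in the imatinib run, and PPOX more than 98.0%, 61.7% and 96.02%. UROD varied more than 75.6% of its neighbours in the Hoechst run, and more than 80.6% without the libraries that stood apart. In the other runs few genes had a higher mean, so no such share is given there. Set against the median of its neighbours, the log2 squared coefficient of variation of UROD differed by 0.78 in the Hoechst run. The difference was -0.04 in the benzene run and 0.54 in the imatinib run. These are descriptions of single cultures.

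Members followed each other weakly over libraries. The 36 pairs of members had a median Spearman correlation of 0.09 in the Hoechst run, 0.10 in the benzene run and 0.14 in the imatinib run. Pairs of all genes detected in at least 50% of libraries had medians of 0.03, 0.05 and 0.04. Without the 13 libraries that stood apart the medians were 0.04, 0.03 and 0.14 over member pairs and 0.02, 0.03 and 0.03 over all pairs. Not all members pass the 50% limit, so the 36 member pairs and all pairs are not chosen alike. Pairs with both members past the limit numbered 15, 3 and 15. With all libraries, the middle correlation of these pairs was 0.01, -0.01 and 0.13, and the highest was 0.27, 0.16 and 0.24. No member pair in the Hoechst run was above 0.3, where 1.85% of all pairs were. In the benzene run 1 pair was above it against 4.75% of all pairs, UROS with UROD at 0.35, with 0.15 in Green and 0.53 in Orange. In the imatinib run 2 pairs were above it against 1.58% of all pairs, SLC25A38 with ALAD at 0.39 (0.41 in Green, 0.36 in Orange) and UROS with CPOX at 0.36 (0.27 and 0.45). Each of these 3 pairs holds a member below the 50% limit, so the shares of all pairs are not like for like. Those members were UROS (36.9%) in the benzene run and ALAD (35.8%), UROS (48.4%) and CPOX (38.9%) in the imatinib run. Without the libraries that stood apart the 3 pairs were at 0.34, 0.37 and 0.34. UROS with UROD had the highest mean of the 3 runs, with 0.27 in the Hoechst run and 0.18 in the imatinib run, or 0.19 and 0.14 without those libraries. The libraries of a run share a batch of cells and a depth scale. The paper captured fresh and fixed cells on different days, and both are pooled here. The part of these captures in the correlations was not tested.

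**Figure D3:**
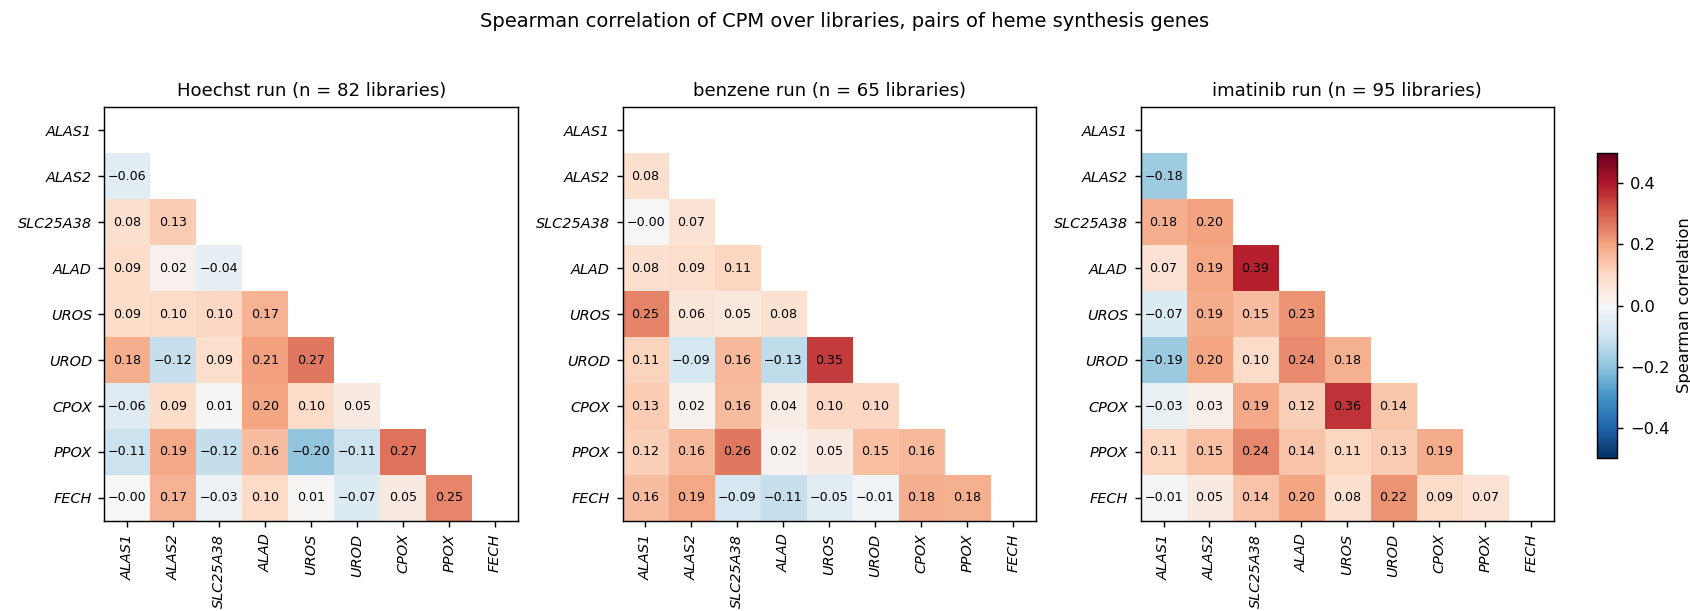
Each panel is 1 run, and each square gives the Spearman correlation of CPM over libraries for a pair of genes, printed and coloured from blue (negative) to red (positive). Most squares are pale, and the darkest are SLC25A38 with ALAD (0.39) and UROS with CPOX (0.36) in the imatinib run and UROS with UROD (0.35) in the benzene run.

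ALAS2 and ALAS1 followed the globins with opposite signs in the imatinib run. In the imatinib run the correlation of ALAS2 with the summed CPM of 7 globin genes was 0.47 over 95 libraries, 0.49 in Green and 0.45 in Orange, while that of ALAS1 was -0.26, with -0.14 in Green and -0.35 in Orange. ALAS2 correlated with each detected globin of that run, from 0.33 for HBA1 to 0.44 for HBG2, with 0.43 for HBZ and 0.41 for HBE1. Libraries with ALAS2 had a median of 4355 globin CPM, from 493 to 14843, and those without it 3113, from 488 to 7843, so the ranges overlapped widely. In the Hoechst run ALAS2 correlated at 0.28 and ALAS1 at 0.01, and in the benzene run at -0.10 and 0.07. UROD correlated with the globins at 0.25, 0.25 and 0.34 in the Hoechst, benzene and imatinib runs, with 0.30 in imatinib Green and 0.39 in imatinib Orange. Without the libraries that stood apart, ALAS2 was at 0.44 and ALAS1 at -0.30 in the imatinib run, ALAS2 fell to 0.15 in the Hoechst run, and UROD was at 0.12, 0.26 and 0.30. Given the number of genes detected, the imatinib values were 0.48 and -0.24. With GATA1 the correlations were 0.04 for ALAS2 and 0.08 for ALAS1 in the imatinib run, while ALAS1 reached 0.44 in benzene Green (0.38 given the number of genes detected) and was at 0.16 over the benzene run. The alternatives for the globin correlation were added after the data were seen.

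**Figure D4:**
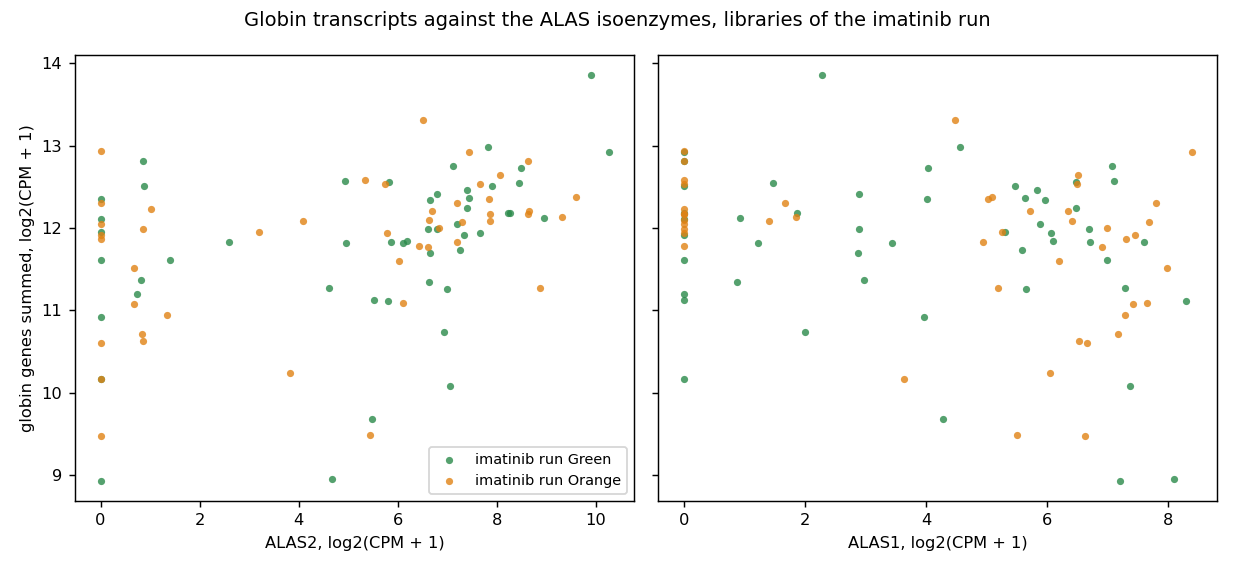
Each point is 1 library of the imatinib run, green for untreated and orange for imatinib, with the summed CPM of the globin genes as log2(CPM + 1) against ALAS2 (left) and ALAS1 (right). Globin levels lean upward with ALAS2 (correlation 0.47) and slightly downward with ALAS1 (-0.26), with wide scatter in both.

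Over 5045 genes detected in at least 50% of libraries of each run, the genes most like each member had mean correlations over the 3 runs of 0.27 to 0.34. Those of ALAS2 were MKS1 (0.32), MCM2, a subunit of the replicative helicase (0.27), and HBE1, embryonic epsilon globin (0.27), which was at 0.02 in the benzene run against 0.37 and 0.41 in the Hoechst and imatinib runs. Those of ALAS1 were RHBDD2 (0.32), the glycolytic enzyme ENO1 (0.31) and ILF2 (0.31). UROD was followed by CKS1BP3, a processed pseudogene (0.34), TPI1, another glycolytic enzyme (0.33), and ATP5MC3, a subunit of ATP synthase (0.32). SLC25A38 was followed by CHCHD3, an inner membrane organising protein (0.33, with 0.06 in the benzene run), TMEM38B (0.32) and C1D (0.31), and ALAD by CISD2 (0.30), ZNF146 (0.28) and PEX19 (0.27). UROS was followed by ISG20L2, ECD and KIF2A (0.27 to 0.28), CPOX by MBNL2 and RNF40 among others (0.28 to 0.30), PPOX by MAPK12, GTPBP2 and LEF1 (0.28 to 0.33), and FECH by PRMT3, RPA2 and COX7A2L (0.27 to 0.32). No member was among the 3 most like another, although 3 members were among the genes compared. Without the libraries that stood apart the means of these same genes were 0.21 to 0.33.

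The benzene label was set against Green in the same run on reads summed per stain, with a rule of size of 1.5-fold and log2 ratios of CPM with a pseudocount of 1. Of the 9 members 1 was higher in Orange, PPOX, and 3 were lower, ALAS2, UROS and FECH. Of 9530 genes detected in at least 20% of libraries, 22.7% were higher and 19.7% lower by this rule, so shifts of this size were common, and 8 of the 9 members passed that filter. The median log2 ratio was -0.12 over the members and 0.04 over all genes. PPOX stood at 29.7 CPM in Green and 60.4 in Orange, a log2 ratio of 1.00 that ran from 0.59 to 1.57 with any 1 library left out. FECH stood at 263 and 132 CPM (-0.99, from -1.11 to -0.65), yet was detected in 77.4% of Green and 88.2% of Orange libraries.

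The ALAS2 difference rested on few libraries. Its sum was 84.8 CPM in Green (interval 82.1 to 87.6) and 5.17 CPM in Orange (4.53 to 5.87), a log2 ratio of -3.80 that ran from -4.41 to -2.96 with 1 library left out. Without the 3 benzene libraries that stood apart it was 86.2 CPM in Green and 1.96 CPM in Orange, a ratio of -4.88. It was detected in 6 of 31 Green and 6 of 34 Orange libraries, it did not pass the filter of 20%, and 3 Green libraries held 97.2% of the Green reads. UROS stood at 36.1 CPM in Green and 18.3 in Orange (-0.95), and without Green library 19 its ratio of -0.47 missed the rule of size. ALAD stood at 0.27, from -1.29 without Orange library 64 to 2.04 without Green library 42, and ALAS1 at -0.16, reaching -0.67 without Orange library 24. UROD differed little, at -0.12 (from -0.17 to -0.05).

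Imatinib was compared with Green in the same way. No member was higher, where 9% of 10834 genes were, and 2 were lower, CPOX and UROS, where 11.1% of genes were. The median was -0.10 over the members and -0.02 over all genes, and all 9 passed the filter. CPOX stood at 21.1 CPM in Green (20.0 to 22.3) and 4.09 CPM in Orange (3.58 to 4.66), a log2 ratio of -2.12 that ran from -2.33 to -1.78 with 1 library left out and lay above that of 0.2% of all genes. It was detected in 48% of Green (33.7 to 62.6) and 28.9% of Orange libraries (16.4 to 44.3), and its libraries ran from 0 through 1.71 to 255 CPM in Green and from 0 through 0 to 32.4 CPM in Orange. The groups thus overlapped at the low end, and the libraries above 100 CPM were 4 Green and no Orange.

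UROS stood at 27.5 and 16.3 CPM (-0.72), and without Green library 51 its ratio of -0.52 missed the rule of size. ALAS1 was at 0.47 and PPOX at 0.44, and both reached 0.59, just past the rule, without Green libraries 3 and 79. ALAD was at -0.28 and passed the rule, at -0.61, without Orange library 7. FECH (0.15), ALAS2 (-0.13), SLC25A38 (-0.10) and UROD (-0.08) differed by less than 1.5-fold with any 1 library left out.

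**Figure D5:**
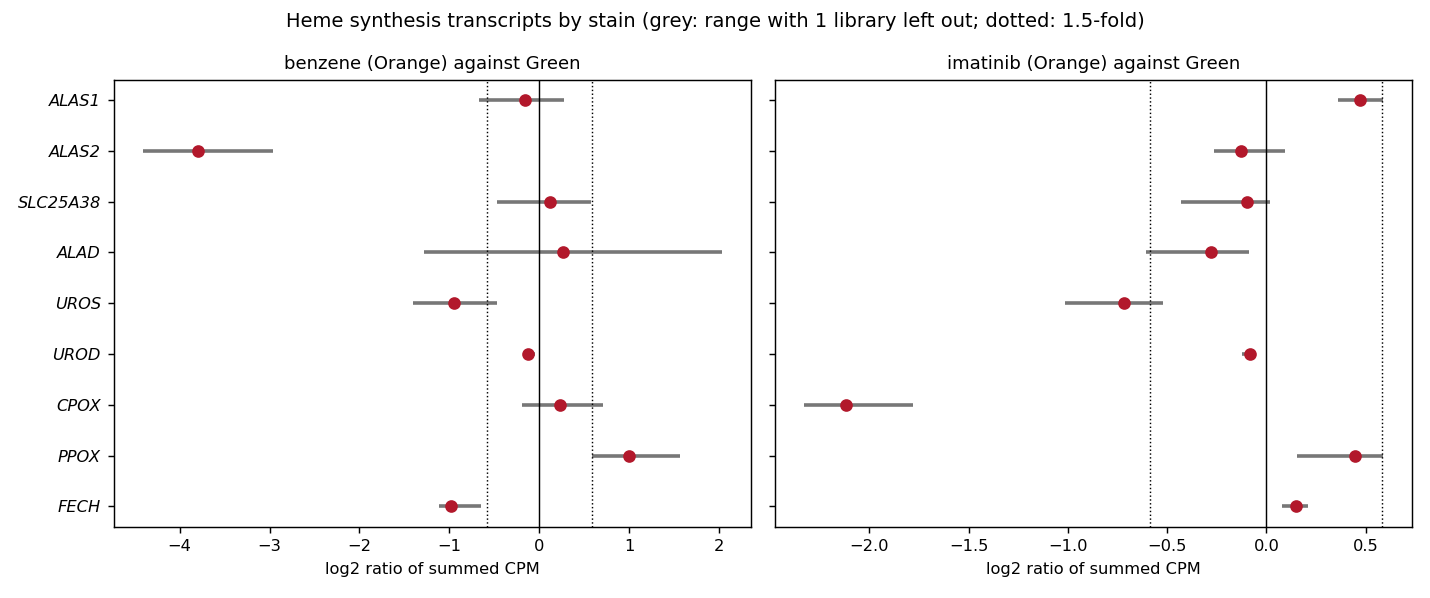
Red points give the log2 ratio of summed CPM, Orange over Green, for each gene in the benzene run (left) and the imatinib run (right); grey bars run over the values with any 1 library left out and dotted lines mark 1.5-fold. ALAS2 lies lowest with benzene (-3.80) and CPOX with imatinib (-2.12), while UROD lies at -0.12 and -0.08.

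The untreated Green libraries of both CellTracker runs, of the same range of passages, were compared with a rule of 2-fold. In the imatinib run CPOX and PPOX were higher, where 18.2% of 10249 genes were, and FECH was lower, where 11.5% of genes were. CPOX stood at 21.1 against 5.61 CPM (log2 ratio 1.74, from 1.40 to 2.22 with 1 library left out) and PPOX at 80.97 against 29.7 CPM (1.42, from 1.27 to 1.99). FECH stood at 127 against 263 CPM (-1.04), and reached -0.70 without benzene Green library 66. The mean of log2(CPM + 1) gave the opposite sign for FECH, 0.31 higher in the imatinib run, where it was detected in 98% against 77.4% of libraries. By that mean the median over all genes was 0.80, so most genes shifted upward and FECH lay below the median. ALAS2 differed by 0.72 in summed CPM, and by 1.55 without benzene Green library 49, but by 3.89 in mean log2(CPM + 1), with 76% against 19.4% of libraries detecting it. With median-of-ratios scaling the calls of the members stayed at 2 higher and 1 lower, while 1496 of all genes were higher and 1620 lower, against 1861 and 1177 by totals. That scaling moved the median over all genes from 0.11 to -0.08. Both Green groups also serve as controls in the other comparisons, which are therefore not independent.

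The Hoechst run was set against both Green groups, and a gene was called only if it passed 2-fold against each. No member was higher, where 10.9% of 10598 genes were, and ALAS2 and SLC25A38 were lower, where 5.13% of genes were. SLC25A38 stood at 41.3 CPM against 102.9 and 103.1 CPM (-1.30 against each), with -0.85 against benzene Green without its library 32. Its mean log2(CPM + 1) differed from benzene Green by -0.02, and it was detected in 73.2% of Hoechst and 58.1% of benzene Green libraries. ALAS2 stood at 33.95 CPM against 84.8 and 139.97 CPM (-1.30 and -2.01), with -0.46 against benzene Green without its library 49, and its mean log2(CPM + 1) was 0.48 above benzene Green. UROD was at -1.23 and -0.75 and FECH at -1.73 and -0.69, past the rule against benzene Green and not against imatinib Green. CPOX was at 2.21 and 0.47. By totals 1157 genes were higher and 544 lower, with TMM factors 836 and 797, and with median-of-ratios scaling 715 and 956, and the members stayed at 0 higher and 2 lower under each. The median over all genes moved from 0.07 to -0.06 with the last of these. Passage, stain, cell lot, sequencer, read length and run cannot be told apart in this comparison. Cells with the dead-cell stain were sequenced in the Hoechst run only. The median share of reads on mitochondrially encoded genes was 12.5% in the Hoechst run against 6.52% in benzene Green and 6.32% in imatinib Green. CD3D, 1 of 8 markers of other cell types, moved with it, at 129.9 CPM against 40.7 and 9.64 CPM, and the summed level of the 8 ran from 0.7 to 669.7 CPM over Hoechst libraries, 0 to 614 in benzene Green and 0 to 233 in imatinib Green, with MS4A1 at 0 in both Green groups. Their part in the result was not tested.

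The genes around the pathway were described by the same rules. SLC25A37, the iron carrier mitoferrin that feeds FECH, was detected in all libraries at 1316, 660.3 and 917 summed CPM in the Hoechst, benzene and imatinib runs, and TMEM14C, which is needed for porphyrin transport in the mitochondrion, was also detected in all. HMOX1, the inducible heme oxygenase, had 2 reads in the 242 libraries, both in the benzene run, whereas HMOX2, the constitutive enzyme, stood at 57.8, 111 and 219 CPM and BLVRB, a biliverdin reductase, at 437, 624 and 566 CPM. ABCG2, a porphyrin exporter, had 6 reads in all. In the benzene comparison, where 22.7% of all genes were higher and 19.7% lower, 1 of 10 transport genes past the filter was higher (PGRMC1, 0.68) and 3 were lower, among them SLC25A28 (-1.22) and ABCB10 (-0.67), and 3 of 8 iron-sulfur assembly genes were higher, led by NFS1 (0.88) and ISCA1 (0.75). NRF1, a regulator of mitochondrial genes, was higher at 28.3 against 8.18 CPM. None of 11 transport genes, 3 heme breakdown genes or 9 iron-sulfur genes passed the rule with imatinib, which 9% of all genes passed upward and 11.1% downward, and where LONP1, the mitochondrial protease that degrades ALAS1, was at 103.4 against 181 CPM (-0.80).

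Of erythroid factors, LMO2 (0.63) was higher and NFE2 (-0.64) lower with benzene, and ZFPM1 (1.11) and LMO2 (0.66) were higher with imatinib, while none of 6 globins past the filter passed the rule in either. EPOR, the erythropoietin receptor, was higher with benzene (1.05) and lower with imatinib (-1.26). Between the Green groups, where 18.2% of all genes were higher and 11.5% lower, 3 of 6 globins were higher in the imatinib run, led by HBZ (1.94) and HBA2 (1.35), as were LDB1 (2.27) and KLF1 (1.15), 4 of 9 iron-sulfur genes led by IBA57 (3.63) and ISCA1 (1.66), the transport genes SLC25A39 (1.45) and PGRMC1 (1.16), HMOX2 (1.24) and NRF1 (1.85). In the Hoechst run, GLRX5 (1.09) and LMO2 (1.18) were higher and RHAG (-1.41) lower against both Green groups, where 10.9% and 5.13% of all genes were.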

How the data were processed

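Adapters had been trimmed and reads mapped with HISAT2 to GRCh37 plus ERCC spike-ins. Duplicates were marked with Picard 1.92. The authors deposited counts of uniquely mapped reads per Ensembl gene, from featureCounts in Subread 1.5.0, with ambiguous reads tallied apart. Whether marked duplicates were dropped and whether strand was used is not given in the sources used here. The authors' deposited CPM values are these counts per 1000000 reads with ERCC included and served only as a check, with a largest relative difference of 3.96e-07 for the members.

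Here CPM was computed from the counts per 1000000 reads on genes, without ERCC. In the benzene run 4 columns matched no title and 4 titles no column, and these were not used. Symbols came from GENCODE v44lift37 (55665 of 63677 identifiers matched). A gene was detected with at least 3 reads. Libraries with over 70% of reads in the top 500 genes were left out. The members and gene lists were chosen with earlier results of these data known. Named genes were the members, the 3 genes most like each member and, per list, at most 2 genes each way past the rule of size; other genes named with their values were picked after these were seen. A few genes that this rule names are not reported here. No libraries were identical. Steps were tested on simulated data. Each run and stain was 1 culture, so sums carry exact Poisson intervals, shares exact binomial ones and differences the range over libraries left out, with no test. Alternatives were other normalizations (TMM of edgeR 4.0.16 in R 4.3.3, median of ratios), pseudocounts, detection limits, thinning, all libraries, Pearson and partial correlations, mean log values and, added later, leaving out the 13 libraries that stood apart. Python 3.11.15, numpy 2.4.6, pandas 2.3.3, scipy 1.17.1 and matplotlib 3.10.9 were used.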

Additional observations from a re-analysis of the deposited data

Results flagged for a closer look

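The 21 libraries left out because the top 500 genes took over 70% of their reads, 14 of the Hoechst run, 6 of the benzene run and 1 of the imatinib run, still held reads on 8 of the 9 members above 3 counts. The labels do not tell which of them were empty sites, bulk samples or cells. Summed over these libraries, the levels were 315 CPM for UROD, 178 for PPOX, 71.95 for FECH, 10.8 for ALAS2, 7.48 for ALAS1, 7.10 for ALAD, 3.74 for SLC25A38 and 1.45 for CPOX, and UROS had 1 read. ALAS2 and ALAD were each detected in 1 of these libraries, in the Hoechst run, and ALAS1 in 1, in the benzene run. The single library of the imatinib run held 6443 CPM of UROD, 5005 CPM of PPOX and 1284 CPM of FECH. In the 14 Hoechst libraries UROD was detected in 7, at a median of 3.79 CPM, and in all 6 of the benzene run, at 23.3 CPM.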

How the results depend on the processing

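Of 1266 alternative values for 229 results, 1135 stayed within their limits, 129 moved and 2 reversed. No paired analysis was possible because the numbers in the titles mark libraries and not matched cultures, and no result came from a test. With the mean of log2(CPM + 1) per library, the FECH difference between the Green groups turned to 0.31 and that of ALAS2 in the Hoechst run to 0.48. By that mean, the Green comparison had 6 members higher, where 41.7% of all genes were, and 0 lower, where 2.17% were. The median was 1.07 over the members and 0.80 over all genes. The Hoechst comparison had 1 member higher, CPOX (2.73 and 1.49), where 8.33% of all genes were. It had 1 lower, FECH (-2.14 and -2.45), where 3.63% were. The median there was -0.023 over the members and 0.12 over all genes. The calls of ALAS2 and SLC25A38 (-0.02 against benzene Green) were lost. With a pseudocount of 10, members lower with imatinib fell to 1, and the Green comparison had 1 higher and 0 lower. With all matched libraries, the Green comparison had 0 lower, and the Hoechst run a median pair correlation of 0.21 with 5 pairs above 0.3. Leaving out 1 library gave 1 to 2 members higher and 2 to 4 lower with benzene, 0 to 1 higher and 1 to 3 lower with imatinib, 2 to 3 higher and 0 to 1 lower between the Green groups and 1 to 3 lower in the Hoechst run. Pairs above 0.3 numbered 1 in the Hoechst run after thinning, 2 in the benzene run with Pearson correlation, and 1 in the imatinib run with Pearson, thinned or partial correlation. Without the 13 libraries that stood apart, the counts of members called were the same in all 4 comparisons, and of the values set against a limit 1 moved, the Hoechst correlation of ALAS2 with the globins (0.15). TMM factors and totals without mitochondrially encoded genes moved no value past its limit. Over all genes, a pseudocount of 10 took genes higher with imatinib from 9% to 3.30% and genes lower from 1204 to 464, and took higher and lower genes from 1861 and 1177 to 905 and 651 between the Green groups, and from 1157 and 544 to 476 and 258 in the Hoechst run. The mean of log values took lower genes with benzene from 1874 to 1035, higher genes with imatinib to 609, and the Green groups to 4272 and 222. Without the detection filter the counts were 4792 and 4106 with benzene (2163 and 1874 with it), 2832 and 2877 with imatinib, 3523 and 2542 between the Green groups and 2636 higher in the Hoechst run. The cause was not tested. In the CellTracker runs low counts limit CPOX most, followed by ALAD and UROS.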
